A study of Homo sapiens with 6 samples.

Results

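The genes described here were the heat shock proteins, their DNAJ co-chaperones and the heat shock factors of HCT116, a human colorectal carcinoma cell line. They were taken by symbol: every protein-coding gene of the FPKM table whose name begins with HSPA, HSPB, HSPH, HSPD, HSPE, HSP90, DNAJ or HSF and goes on with a letter or digit, leaving out HSPA5, HSP90B1, DNAJB9 and DNAJB11. This rule gave 85 of the 58735 genes listed, of which 19951 are protein-coding. The rule was meant for cytosolic chaperones, but it also takes in others. Some are proteins of mitochondria, such as HSPD1, HSPE1, HSPA9, DNAJA3, DNAJC11, DNAJC15, DNAJC19 and DNAJC30. Some are of the endoplasmic reticulum, such as HSPA13, DNAJB14, DNAJC1, DNAJC3 and DNAJC10. The set is therefore called the heat shock protein and DNAJ family below and not a cytosolic one.

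Chaperones of the HSP70 class bind unfolded stretches of other proteins and release them in a cycle driven by ATP. J-domain proteins (DNAJA, DNAJB and DNAJC) bring clients to HSP70 and stimulate its ATPase, HSP110 proteins and other exchange factors reset it by removing ADP, and HSP90 takes over clients such as kinases and steroid receptors at a late step of folding. Small heat shock proteins hold unfolded proteins without ATP. Many of these genes are transcribed through heat shock factor 1 (HSF1), which binds repeated GAA and TTC units, the heat shock elements, in their promoters.

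The study asked how miR-8485, a microRNA, alters transcription in these cells. RNA-seq was done on 3 libraries of control-transfected HCT116 cells (CTR) and 3 of cells that received 50 nM miR-8485 mimics, synthetic RNA duplexes that act as the microRNA, with collection after 48 h. All 6 came from one line (the genotype label of CTR reads WT), transfected with the lipid reagent DMRIE-C, and the labels call the libraries independent biological replicates. The dose and sequence of the control were not given in the sources used here. Each library held 17473874 to 18480047 fragments on listed genes. Of 9 colon epithelial markers, 6 were at 1 FPKM or more in every library (EPCAM, CDH1, KRT8, KRT18, KRT19 and CDX2), while VIL1, CDH17 and LGALS4 stayed near 0. The summed FPKM of the 9 was 2610 to 2840 in CTR and 1750 to 1840 in miR-8485. Of 9 markers of other cells, 8 were below 1 FPKM throughout, the exception being COL1A1, and their sum was 4.49 to 5.11 in CTR and 6.96 to 7.24 in miR-8485. The part of these shifts in the results below was not tested.

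Values are FPKM, fragments scaled by the listed length of the gene and the total of the library. How that length was set was not given in the sources used here. Abundance, shares and ratios between genes are in FPKM below and depend on it. In CTR replicate 1, for example, HSP90AA1 and HSP90AB1 had 48631 and 52860 fragments. Their listed lengths of 5248 and 2980 bases gave 514 and 984 FPKM. Differences are on the log2(FPKM + 0.1) scale, miR-8485 minus CTR, with their standard error (SE) and the adjusted p of limma over the 12349 genes with a mean of at least 1 FPKM, and a gene was called lower or higher at an adjusted p under 0.05. In bulk RNA, fewer cells that express a gene and less of its RNA per cell cannot be told apart.

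Of the 85 members, 59 passed the filter, 19 were above 0 but below a mean of 1 FPKM, and 7 were at 0 in every library. Of the 59, 27 were called lower (45.8%), 8 were called higher (13.6%) and 24 were not called, whereas 30.5% of all tested genes were called lower and 29.1% higher. In 30 members every miR-8485 library lay below every CTR library and in 10 every one lay above, against 34.0% and 32.5% of all tested genes. The median difference of the 59 was -0.11 on the log2 scale, with a range from -0.95 (DNAJB1) to 1.10 (DNAJC30), beside a median of -0.00 over all tested genes. The share called lower was thus above that of all tested genes and the share called higher below it, a difference that was not itself tested, and every called fall was smaller than 2-fold. Rescaling to TPM shifted the median of all tested genes to -0.12 and that of the members to -0.22. The members lay -0.10 from all genes under both scales. After removal of the trend against gene length, the median of the members was -0.07, and they lay -0.07 from all genes.

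**Figure D1:**
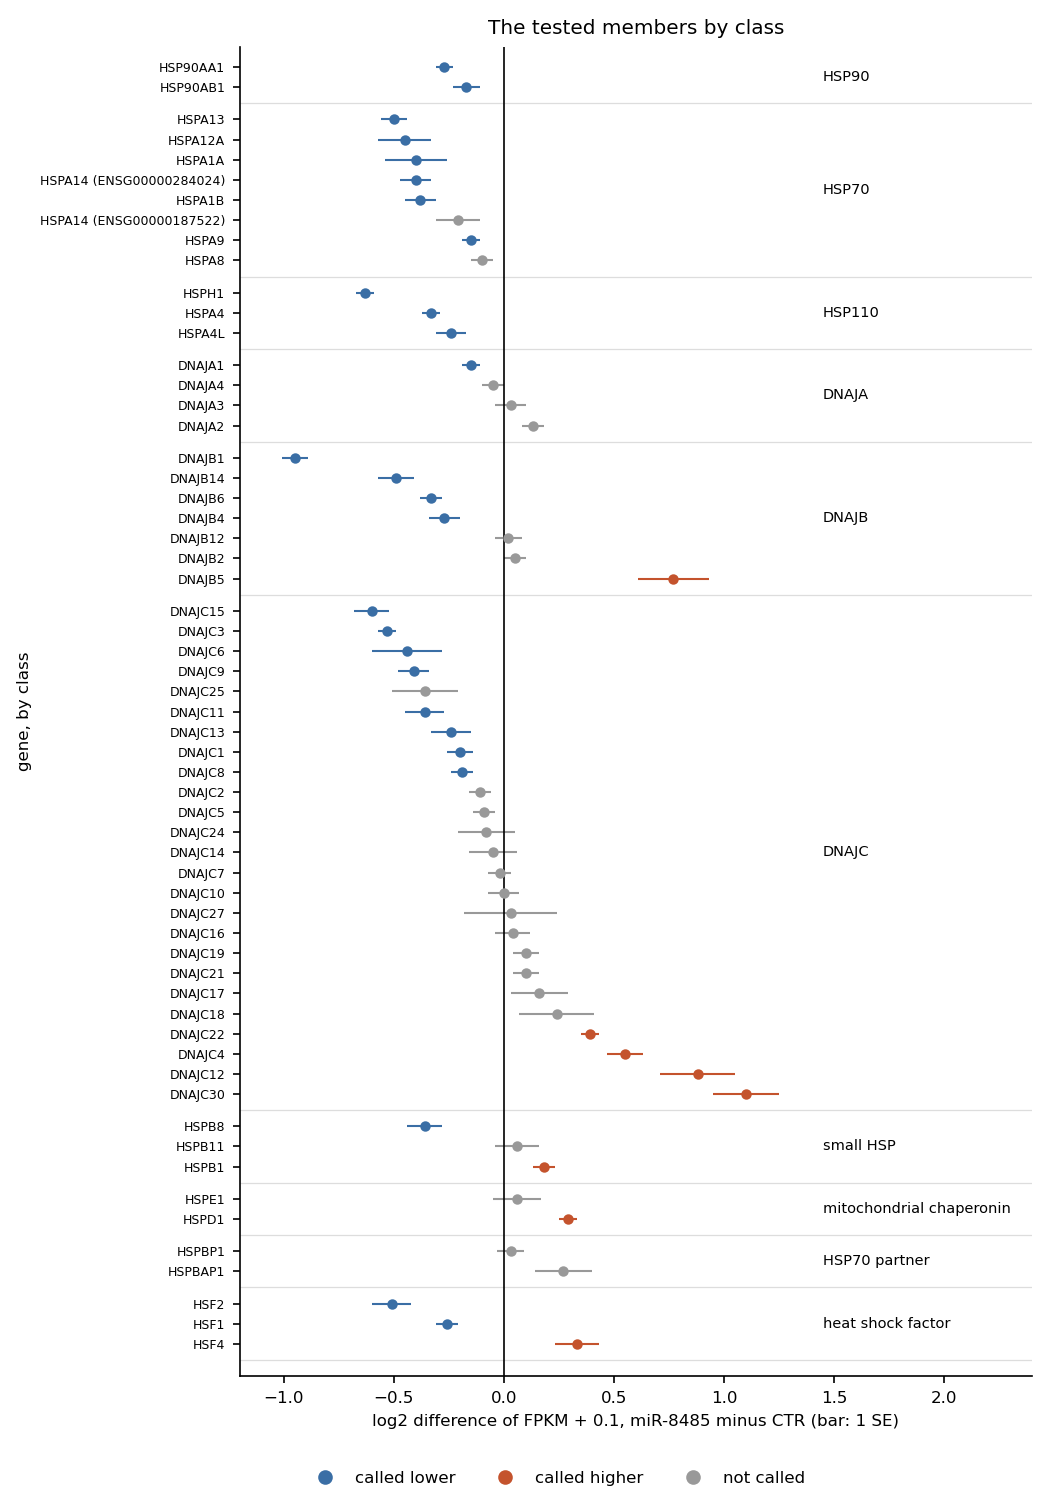
Log2 difference of FPKM + 0.1 (miR-8485 minus CTR, x axis) for the 59 tested members, one row each, grouped by class; points are limma estimates, bars 1 SE, blue called lower, orange called higher, grey not called. All 3 HSP110 genes and both HSP90 genes lie left of 0, and the 4 genes called higher among DNAJC stand at 0.39 to 1.10.

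The promoters of the members were described by their heat shock elements, the units that HSF1 binds. RefSeq promoter windows (GRCh38.p14, 250 bases before to 50 after the start) were found for 73 of the 84 member symbols, among them 52 of the 58 tested symbols. They were searched on both strands for units of GAA and TTC in alternation, 2 bases apart, the form GAANNTTC or TTCNNGAA holding 2 units and a further unit making 3. At least 3 units in a row occurred in 7 of the 73 members (9.59%) and in 166 of 27305 genes overall (0.608%). The windows below are written 5′ to 3′ on the strand of the gene, with the units in capitals. The first is of the member that fell most, the next of 4 that were called lower, then one not called, one called higher and one hardly expressed.

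DNAJB1: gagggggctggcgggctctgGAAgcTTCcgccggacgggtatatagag
HSPA1B: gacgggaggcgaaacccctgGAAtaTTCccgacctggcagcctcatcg
HSP90AA1: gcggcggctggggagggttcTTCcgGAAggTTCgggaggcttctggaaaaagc
HSP90AB1: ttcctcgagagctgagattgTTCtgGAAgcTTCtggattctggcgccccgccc
DNAJB6: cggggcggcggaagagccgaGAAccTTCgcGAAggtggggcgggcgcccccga
HSPA8: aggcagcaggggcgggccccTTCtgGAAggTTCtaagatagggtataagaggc
HSPD1: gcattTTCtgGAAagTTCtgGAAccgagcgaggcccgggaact
HSPA6: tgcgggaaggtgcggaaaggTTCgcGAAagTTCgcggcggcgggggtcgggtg

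These windows lie on GRCh38.p14 at chr19:14518417-14518464 on the minus strand (DNAJB1), chr6:31827613-31827660 on the plus strand (HSPA1B), chr14:102087100-102087152 on the minus strand (HSP90AA1), chr6:44247811-44247863 on the plus strand (HSP90AB1), chr7:157336853-157336905 on the plus strand (DNAJB6), chr11:123062159-123062211 on the minus strand (HSPA8), chr2:197500048-197500090 on the minus strand (HSPD1) and chr1:161524446-161524498 on the plus strand (HSPA6). All are upstream of the annotated start. The units end 40 bases before it in DNAJB1, 98 in HSPA1B, 76 in HSP90AA1, 100 in HSP90AB1, 119 in DNAJB6, 43 in HSPA8, 228 in HSPD1 and 62 in HSPA6. HSPD1 has 4 units in a row, DNAJB1 and HSPA1B have 2 in the run shown, and the other 5 have 3. The divergent neighbour of HSPA1A, HSPA1L, shares its run with HSPA1A: both windows hold the same bases on opposite strands.

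Runs of at least 2 units were found in 13 of the 24 members called lower that had a window (54.2%). They were found in 2 of the 7 called higher (28.6%) and 2 of the 21 not called (9.52%). The share among all genes with a window, tested or not, was 16.2%, and none was taken over tested genes only. Runs of at least 3 were found in 4 of the 24 called lower (DNAJA1, DNAJB6, HSP90AA1 and HSP90AB1), 1 of the 7 called higher (HSPD1) and 1 of the 21 not called (HSPA8), and in HSPA6, which was not tested. The search was made with the calls known and no test was run on it. A match describes letters and not binding. HSPD1, which was called higher, holds the longest run. A pair of 3-unit runs lies in HSPA8, which was not called, and also in HSP90AB1, which was called lower.

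HSP90 made up 46.6% of the summed FPKM of the family in CTR, and both genes were lower with miR-8485. HSP90AB1, the constitutive cytosolic form and the most abundant member, was at 984, 1074 and 1105 FPKM in CTR and at 910, 949 and 949 in miR-8485. Its difference was -0.17 (SE 0.06, adjusted p = 0.03), with no overlap between the groups. The call was lost, at unchanged direction, without CTR replicate 2 (-0.16) or 3 (-0.14) and without miR-8485 replicate 1 (-0.15), 2 (-0.18) or 3 (-0.18). HSP90AA1, the inducible form, was at 514, 498 and 479 FPKM in CTR and at 410, 416 and 408 in miR-8485, again without overlap, a difference of -0.27 (SE 0.04, adjusted p = 0.0011). Together the pair was at 1551 ± 46.6 FPKM in CTR and 1347 ± 23.9 in miR-8485 (SD, n = 3), 13.1% lower.

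Of the 12 HSP70 genes, 8 were tested; 6 were called lower and the other 2 were not called. HSPA8, the constitutive cytosolic HSP70 and the third most abundant member, was at 392, 421 and 420 FPKM in CTR and at 389, 389 and 372 in miR-8485. The groups did not overlap, but the difference of -0.10 (SE 0.05, adjusted p = 0.092) was not called. Without CTR replicate 1 it was -0.14 and called. The stress-inducible pair HSPA1A and HSPA1B encodes nearly identical proteins, and the genes share so much sequence that how fragments were split between them is uncertain. HSPA1B was at 34.2, 39.9 and 41.0 FPKM in CTR and 29.8, 30.02 and 28.3 in miR-8485, a difference of -0.38 (SE 0.07, adjusted p = 0.0031). HSPA1A, far lower in level, was at 3.02, 3.12 and 2.54 FPKM in CTR and at 1.996, 2.65 and 1.90 in miR-8485. Here the groups overlapped, and the difference of -0.40 (SE 0.14, adjusted p = 0.046) was no longer called without CTR replicate 1 (-0.37) or 2 (-0.34), or without miR-8485 replicate 1 (-0.34) or 3 (-0.31). The sum of the pair, which does not depend on the split of counted fragments, was 37.2, 43.1 and 43.5 FPKM in CTR. In miR-8485 it was 31.7, 32.7 and 30.2, 23.6% lower on average and without overlap. How fragments matching both genes were counted was not given in the sources used here, so the sum may miss some.

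HSPA6, a strictly inducible HSP70 that unstressed cells barely transcribe, had 2, 0 and 0 fragments in CTR and 2, 2 and 1 in miR-8485. A difference in HSPA6 was not detectable at this depth. Below the HSP70 genes of the cytosol, HSPA13, a stress-associated HSP70 of the microsomal fraction, fell from 11.8, 10.7 and 11.5 FPKM in CTR to 7.87, 7.80 and 8.26 in miR-8485 (-0.50, SE 0.06, adjusted p = 2.2e-04). HSPA12A, a distant relative, was at 2.97, 3.73 and 2.84 FPKM in CTR and 2.29, 2.19 and 2.41 in miR-8485 (-0.45, SE 0.12, adjusted p = 0.012). Both fell without overlap. The remaining calls were HSPA9, the mitochondrial HSP70 (-0.15), and the row named HSPA14 with the identifier ENSG00000284024 (-0.40), which GENCODE release 44 names MSANTD7 and which is therefore uncertain as a chaperone. The other HSPA14 row, ENSG00000187522, was at -0.21 with an adjusted p of 0.11.

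The 3 HSP110 genes, exchange factors of HSP70, were all called lower, with a median difference of -0.33. HSPH1, the heat-inducible HSP110 itself, was at 42.6, 42.1 and 39.9 FPKM in CTR and at 26.8, 26.5 and 27.1 in miR-8485. The level thus fell by 35.6% (-0.63, SE 0.04, adjusted p = 2.2e-05), the second steepest among the 59 tested members. HSPA4, the most abundant of the class, was at 70.0, 68.4 and 68.5 FPKM in CTR and 54.6, 55.2 and 54.2 in miR-8485 (-0.33, SE 0.04, adjusted p = 1.9e-04). HSPA4L, at 4.20 FPKM in CTR and 3.55 in miR-8485, was at -0.24 and was not called without CTR replicate 2 (-0.19) or miR-8485 replicate 3 (-0.22). As HSPH1 fell more than HSPA4, the FPKM ratio of HSPH1 to HSPA4 went from 0.583 to 0.616 in CTR to 0.480 to 0.499 in miR-8485.

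**Figure D2:**
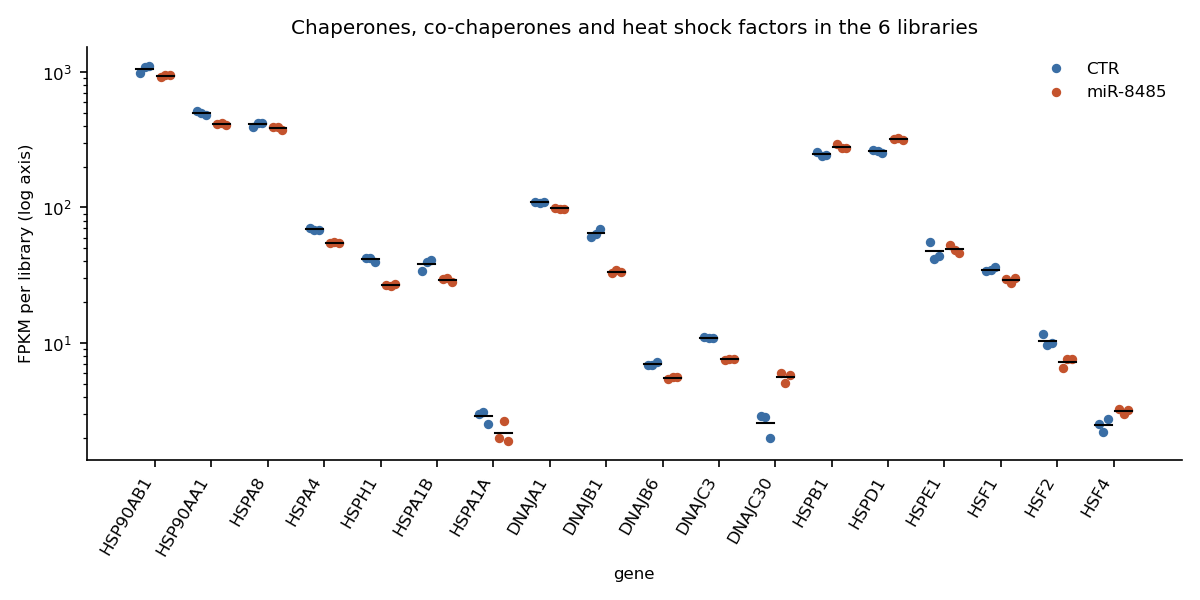
FPKM of 18 members (x axis) in each library on a log y axis, CTR blue and miR-8485 orange, 3 points a group with a black line at the mean. The DNAJB1 points of miR-8485 (32.6 to 34.5) sit clear of those of CTR (60.8 to 69.5), whereas the HSPA8 groups (372 to 389 and 392 to 421) nearly touch.

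Of 42 DNAJ genes, 36 were tested, with 13 called lower (36.1%), 5 higher (13.9%) and 18 not called, a median of -0.05. The share called lower was near the 30.5% of all tested genes, and the share called higher was below their 29.1%. The 23 other tested members had 14 lower (60.9%), 3 higher (13.0%) and 6 not called, a median of -0.24. DNAJB1, the main cytosolic partner of HSP70 and a classical heat shock gene, showed the steepest fall of the 59 tested members. It was at 60.8, 64.1 and 69.5 FPKM in CTR and at 32.6, 34.5 and 33.5 in miR-8485, so that it fell by 48.2% (-0.95, SE 0.06, adjusted p = 1.4e-05). The spread within each group was small beside this gap. Its client-binding relative DNAJA1 was at 110.4, 107.4 and 109.9 FPKM in CTR and 99.5, 97.1 and 98.1 in miR-8485, so that it fell by 10.1% (-0.15, SE 0.04, adjusted p = 0.0084). The ratio of DNAJB1 to DNAJA1 in FPKM was accordingly 0.551 to 0.633 in CTR and 0.328 to 0.355 in miR-8485, and that of DNAJB1 to HSPA8 was 0.152 to 0.166 in CTR and 0.0840 to 0.0902 in miR-8485.

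Among the 4 DNAJA genes only DNAJA1 was called, and DNAJA2 (0.13), DNAJA3 (0.03) and DNAJA4 (-0.05) had overlapping groups. Among the 7 tested DNAJB genes, DNAJB1, DNAJB14 (-0.49), DNAJB6 (-0.33) and DNAJB4 (-0.27) were called lower and DNAJB5 higher. DNAJB14, a J-domain protein anchored in the membrane of the endoplasmic reticulum, was at 3.35, 3.89 and 3.66 FPKM in CTR and 2.67, 2.45 and 2.55 in miR-8485 (SE 0.08, adjusted p = 0.0017). DNAJB5 was at 1.27, 1.54 and 1.004 FPKM in CTR and rose to 2.24, 2.26 and 2.15 in miR-8485 (0.77, SE 0.16, adjusted p = 0.0044). Hence DNAJB members moved both ways, each without overlap.

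DNAJC is the most varied class, its members sharing little but the J domain. Of 25 tested, 8 were called lower (32%), 4 higher (16%) and 13 not called, with a median of -0.05. The share called lower was near the 30.5% of all tested genes, and the share called higher was below their 29.1%. DNAJC15, which sits in the inner mitochondrial membrane at the import motor, was at 3.37, 3.24 and 3.09 FPKM in CTR and 2.24, 2.07 and 1.998 in miR-8485 (-0.60, SE 0.08, adjusted p = 7.1e-04). DNAJC3, a co-chaperone in the lumen of the endoplasmic reticulum and a known inhibitor of the kinase PERK, was at 11.2, 10.9 and 11.0 FPKM in CTR and 7.53, 7.59 and 7.68 in miR-8485 (-0.53, SE 0.04, adjusted p = 5.7e-05). DNAJC8, a protein associated with the spliceosome and the most abundant DNAJC, was at 52.8, 47.3 and 47.6 FPKM in CTR and 43.1, 43.9 and 42.6 in miR-8485 (-0.19, SE 0.05, adjusted p = 0.018). All 3 fell without overlap, but the call of DNAJC8 was lost without miR-8485 replicate 3 (-0.18). The other 5 called lower were DNAJC6 (-0.44), which uncoats clathrin vesicles, DNAJC9 (-0.41), a histone chaperone, DNAJC11 (-0.36), DNAJC13 (-0.24), a protein of endosomes, and DNAJC1 (-0.20), of which DNAJC6, DNAJC13 and DNAJC1 lost the call in at least 1 of the sets with a library left out. The 13 not called ranged from -0.36 (DNAJC25) to 0.24 (DNAJC18). Of these, DNAJC25, DNAJC2 and DNAJC5 lay below CTR in every library and DNAJC21 above, and the other 9 overlapped.

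The largest rises among the tested members were also in DNAJC. DNAJC30, a mitochondrial J-domain protein, was at 2.92, 2.87 and 2.001 FPKM in CTR and 6.03, 5.05 and 5.79 in miR-8485, 2.16 times as high on average (1.10, SE 0.15, adjusted p = 5.6e-04). DNAJC12, a co-chaperone of the aromatic amino acid hydroxylases, was at 0.994, 0.938 and 1.38 FPKM in CTR and 1.92, 2.19 and 2.18 in miR-8485 (0.88, SE 0.17, adjusted p = 0.0031). Both were minor members, at under 7 FPKM in every library, and neither overlapped. DNAJC4 went from 6.72, 5.65 and 6.95 FPKM in CTR to 9.26, 9.24 and 9.80 in miR-8485 (0.55, SE 0.08, adjusted p = 9.7e-04). Its interval overlaps that of NUDT22 on the same strand. DNAJC22, a membrane J-domain protein, went from 9.31, 9.62 and 9.71 FPKM to 12.6, 12.5 and 12.5 (0.39, SE 0.04, adjusted p = 2.4e-04). The interval of DNAJC30 overlaps that of BUD23 on the opposite strand, as 17 of the 59 tested members overlap a protein-coding gene, and the strand setting of the counting was not given in the sources used here, so reads of the 2 genes may not be fully told apart. BUD23 itself was at a mean of 23.5 FPKM in CTR and 19.9 in miR-8485, opposite to DNAJC30. TECR, which overlaps DNAJB1 in the same way, was at 29.9 in CTR and 27.7 in miR-8485.

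The mitochondrial chaperonin and the main small heat shock protein did not follow the HSP70 and HSP90 genes. HSPD1, the chaperonin HSP60, rose from 267, 262 and 253 FPKM in CTR to 319, 325 and 314 in miR-8485 (0.29, SE 0.04, adjusted p = 5.8e-04). Its partner HSPE1, the lid of the chaperonin, was at 55.9, 42.0 and 44.2 FPKM in CTR and 53.2, 48.5 and 46.0 in miR-8485, overlapping and not called (0.06, SE 0.11, adjusted p = 0.64), and the sign turned in TPM (-0.05) and after removal of the length trend (-0.07). Without CTR replicate 1, the highest of its CTR libraries, HSPE1 was at 0.19 and called. The intervals of HSPD1 and HSPE1 overlap on opposite strands, so their fragments may be mixed. HSPB1, the abundant small heat shock protein HSP27, was at 257, 239 and 243 FPKM in CTR and 295, 273 and 272 in miR-8485 (0.18, SE 0.05, adjusted p = 0.015), a rise that depended on the scale. It was 0.07 after rescaling to TPM and 0.01 after removal of the trend against gene length, and it was not called without CTR replicate 2 (0.16) or 3 (0.18) or miR-8485 replicate 1 (0.15). HSPB8, an HSPB1 relative that works with BAG3, was called lower (-0.36), and HSPB11, named IFT25 in GENCODE release 44, was at 0.06 and not called. HSPBP1, an exchange factor of HSP70, was at 33.4 ± 1.59 FPKM in CTR and 34.1 ± 2.31 in miR-8485 (SD, n = 3) and was not called (0.03, and -0.09 in TPM), and neither was HSPBAP1 (0.27).

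Of the 11 genes named HSF, 3 were tested. HSF1, the factor that drives the heat shock response, was at 33.9, 34.5 and 36.1 FPKM in CTR and 29.5, 27.8 and 30.2 in miR-8485. It fell by 16.3% without overlap (-0.26, SE 0.05, adjusted p = 0.003). The interval of HSF1 overlaps that of DGAT1 on the opposite strand, so their fragments may be mixed. DGAT1 was at a mean of 27.81 FPKM in CTR and 25.45 in miR-8485. HSF2, a related factor that can form mixed trimers with HSF1, was at 11.6, 9.70 and 9.999 FPKM in CTR and 6.61, 7.61 and 7.60 in miR-8485, so that it fell by 30.3% (-0.51, SE 0.09, adjusted p = 0.0018). HSF4, best known from the lens, was at 2.53, 2.21 and 2.78 FPKM in CTR and 3.30, 3.01 and 3.20 in miR-8485 (0.33, SE 0.10, adjusted p = 0.023). The call of HSF4 was lost after rescaling to TPM (0.23) and without CTR replicate 2 (0.25), miR-8485 replicate 1 (0.30) or miR-8485 replicate 3 (0.32). The interval of HSF4 overlaps a protein-coding gene on the same strand. The other 8 were below a mean of 1 FPKM. These are levels of mRNA, and the activity of HSF1, which is set largely after translation, was not measured.

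Over all 85 members the summed FPKM was 3283, 3337 and 3359 in CTR and 3075, 3099 and 3053 in miR-8485, 7.55% lower on average, and 14.7% lower in TPM. Without the HSP90 pair it was 1785, 1765 and 1776 in CTR and 1754, 1734 and 1696 in miR-8485, 2.67% lower. The 5 most abundant members (HSP90AB1, HSP90AA1, HSPA8, HSPD1 and HSPB1) made up 74.2% of the sum in CTR, and of these the HSP90 pair was called lower, HSPD1 and HSPB1 were called higher and HSPA8 was not called. The members took 1.36% of all fragments in each CTR library and 1.23 to 1.25% in miR-8485.

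**Figure D3:**
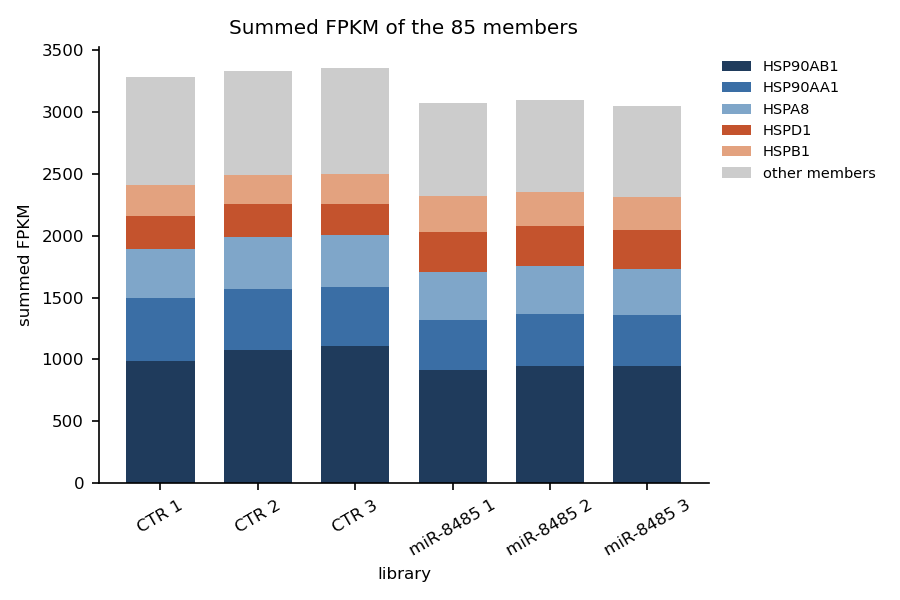
Summed FPKM (y axis) of the 85 members in each of the 6 libraries (x axis), stacked by the 5 most abundant members and all others. The bars of CTR reach 3283 to 3359 and those of miR-8485 3053 to 3099, while the HSPD1 and HSPB1 segments are taller in miR-8485.

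Of the 26 members below the filter, the highest mean was 0.883 FPKM. In the limma fit of all 31768 genes above 0, which could include 19 of them, 0 were called and 4 had an unadjusted p under 0.05. The highest fragment number of any of them in a library was 143. Some of their estimates in that fit were as large as those of tested members but were not called, such as HSPA2 (-0.69, adjusted p = 0.091), whose miR-8485 libraries all lay below CTR, and HSFX3 (1.35, adjusted p = 0.052), whose libraries all lay above. They include most of the muscle and testis forms, such as HSPB2, HSPB3, HSPB6, HSPB7, HSPB9 and DNAJB8. The readthrough gene HSPE1-MOB4 had 11 fragments in CTR replicate 3 and 0 in the other 5 libraries.

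The genes of the heat shock response were followed beyond the family with a list of 30 genes, 17 of them members. These genes are known to be induced through HSF1 or typical of heat shock. The list was chosen with earlier results of these data known, and no test was run on its shares. Of the 28 tested, 20 were called lower (71.4%), 4 higher (14.3%) and 4 not called, with a median of -0.25, beside 30.5% and 29.1% of all tested genes. In TPM 22 were lower and 1 higher. All 12349 tested genes shifted too, from 3769 lower and 3593 higher in FPKM to 4725 and 2613 in TPM. In FPKM the members on the list had 11 lower, 2 higher and 3 not called. The 12 tested that are not members had 9 lower, 2 higher (AHSA1 and UBB) and 1 not called (SERPINH1). The non-members called lower included HSPA5, the HSP70 of the endoplasmic reticulum, which responds mainly to stress in that compartment (mean 248.9 FPKM in CTR and 134.5 in miR-8485, -0.89).

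**Figure D4:**
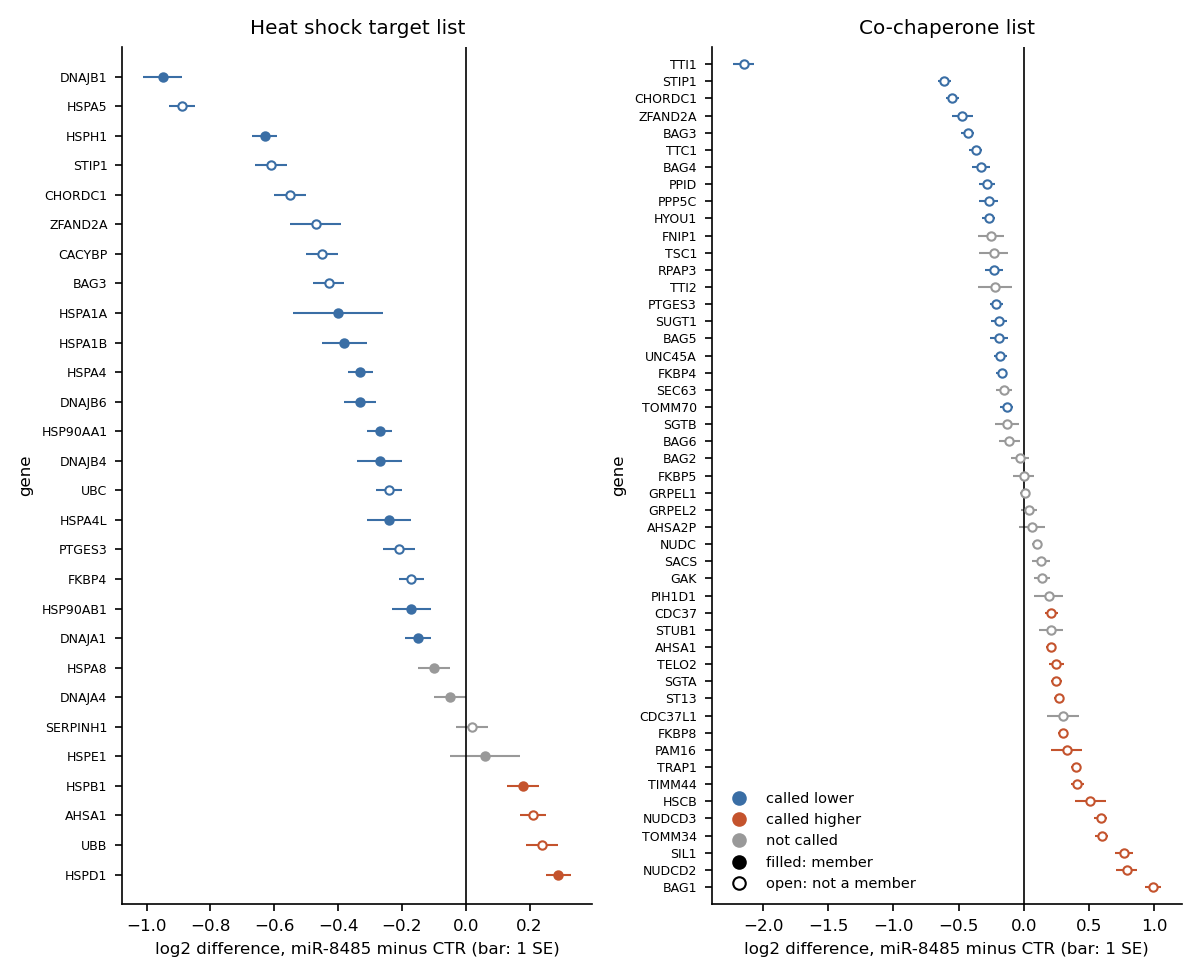
Log2 difference (x axis, miR-8485 minus CTR) of each tested gene of the heat shock target list (left, 28 genes) and the co-chaperone list (right, 49 genes), with bars of 1 SE; filled points are members, open points are not, and colours give the call. The left panel has 20 genes called lower and 4 higher, the right panel 17 and 15. Genes on both lists, such as STIP1, CHORDC1 and AHSA1, are in both panels.

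Proteins that work with HSP70 or HSP90 without carrying a family symbol were described with a list of 51 genes, 49 of them tested. Of these, 17 were called lower, 15 higher and 17 not called, with a median of -0.00, so 34.7% were lower and 30.6% higher, near the 30.5% and 29.1% of all tested genes. Over all 12349 tested genes, rescaling to TPM moved the counts from 3769 lower and 3593 higher to 4725 and 2613. Removing the length trend gave 3703 and 3615. On the list, TPM gave 22 lower and 11 higher, and removing the length trend 12 lower and 16 higher. The steepest falls were of TTI1, which with TELO2 stabilizes kinases of the PI3K-related group (8.06 to 1.74 FPKM, -2.15), STIP1, which hands clients from HSP70 to HSP90 (99.3 to 64.9 FPKM, -0.61), and CHORDC1, an HSP90 partner (12.3 to 8.38 FPKM, -0.55). The steepest rises were of BAG1, an exchange factor of HSP70 (6.19 to 12.4 FPKM, 0.99), NUDCD2, an HSP90 partner (3.82 to 6.66 FPKM, 0.79), and SIL1, the exchange factor of HSPA5 (4.72 to 8.11 FPKM, 0.77). This list shares BAG3, CHORDC1, AHSA1, STIP1, FKBP4, PTGES3, ZFAND2A and CRYAB with the heat shock target list. Of the shared genes AHSA1 was called higher, CRYAB was not tested and the others were called lower. The counts of the lists are therefore not independent.

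Because a microRNA can lower an mRNA through sites in its 3′ UTR, the canonical 3′ UTRs of GENCODE release 44 (hg38) were searched on the mRNA strand for TGTGTGT, the letters that pair with bases 2 to 8 of the mimic. At least 1 copy, overlapping copies counted, was present in 15 of the 59 tested members (25.4%) and in 3086 of 10672 tested genes with a 3′ UTR (28.9%). It was present in 8 of the 27 members called lower (29.6%), 2 of the 8 called higher (25.0%) and 5 of the 24 not called (20.8%). The median difference was -0.24 in the 15 members with a copy and -0.08 in the 44 without, but the 3′ UTRs of the first were also longer, at a median of 2345 against 1064 bases. The copies are shown for 3 members with 8, 1 and 5 copies, with the matching letters in capitals.

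HSPA4: tttggTGTGTGTGTGTGTGTGTGTggggaa
HSPH1: tccattcagcaTGTGTGTgggtgtggatgt
DNAJC19: ctaggggTGTGTGTGTGTGTGTattctatg

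These windows are on hg38 at chr5:133106138-133106167 on the plus strand (HSPA4), chr13:31136908-31136937 on the minus strand (HSPH1) and chr3:180984089-180984118 on the minus strand (DNAJC19), all exonic within the 3′ UTR. HSPA4 holds 8 copies, 7 of them overlapping in the window shown, and fell (-0.33), HSPH1 holds 1 and fell further (-0.63), and DNAJC19 holds 5 and was not called (0.10, adjusted p = 0.18). DNAJB1, HSP90AA1, HSP90AB1, HSPA1B, HSF2, DNAJC3, DNAJC15 and DNAJB14 hold 0 in this annotation. Of the 8 steepest called falls, 5 were thus in mRNAs without these letters in the canonical 3′ UTR. The others, HSPH1, HSPA13 and HSPA12A, hold 1 copy each, beside 28.9% of all tested genes with at least 1. No test was run on this count. HSPB1, which was higher, has 1 copy in a 3′ UTR of 119 bases. Other sites, isoforms and pairing outside bases 2 to 8 were not analysed here.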

How the data were processed

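Total RNA of 6 HCT116 libraries was sequenced as read pairs. Per the paper's methods and the labels, the authors trimmed the reads, aligned them to hg38 with HISAT2 2.0.5 and counted fragments per gene with featureCounts 1.5.0-p3. The deposited values were FPKM, set by the authors from those counts, gene length and library total. The annotation release and strand setting were not given in the sources used here. Every value above 0 was a whole number of fragments within 0.05, and 0 columns were left without a sample.

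The 2 groups were compared with limma 3.58.1 (R 4.3.3, variance trend, two-sided, Benjamini-Hochberg) on log2(FPKM + 0.1), fitted to 12349 genes whose FPKM averaged 1 or more, in place of the authors' test on counts. Python 3.11.15, numpy 2.4.6, pandas 2.3.3 and matplotlib 3.10.9 were used for the rest. The scripts were tested on simulated data. The chi-square per gene between libraries was 2.68 to 9.60 within a group (6 pairs) and 54.4 to 62.4 between groups (9 pairs), so no 2 libraries agreed within counting error. Alternatives were other pseudocounts, filters, scalings and variance models, voom on recovered fragments, the replicate number as a block, and each library left out.

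Members and lists were chosen with earlier results of these data known. Members named are 14 of the heat-inducible core and its factors, the 8 steepest called falls and rises, and the most abundant of each class. Of the co-chaperone list, 3 falls and 3 rises are named, and the genes shared with the heat shock target list. Other genes are named where a count was 5 or fewer or a sequence is shown, after their values were seen. HSPA14 stands for 2 rows.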

Additional observations from a re-analysis of the deposited data

How the results depend on the processing

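The counts of members and list genes called lower stayed within 1.5 times their values under every alternative run. The count of members called higher was 4 in place of 8 with a mean FPKM of at least 5, where only 37 members were tested. Of the heat shock target list, 1 gene was called higher in TPM and 2 after removal of the length trend, in place of 4. Over all tested genes, 2613 were called higher in TPM and 3615 after that removal, in place of 3593. The summed FPKM of the members fell by 14.7% in TPM in place of 7.55%. With 1 library left out, 23 to 26 members were called lower and 6 to 10 higher. Of the 27 members called lower, 19 were tested in all 10 other settings, of which 17 kept the call, and the other 8 were not tested at a mean of 5 FPKM. DNAJC6, DNAJC13, HSP90AB1, HSPA1A, HSPA4L and HSPA9 lost it at least once. With each library left out in turn, 20 of the 27 kept it (DNAJC1, DNAJC6, DNAJC8, DNAJC13, HSP90AB1, HSPA1A and HSPA4L lost it). Of the 8 called higher, 4 were tested in all 10 settings, of which 3 kept the call, and 6 of the 8 kept it with each library left out (HSF4 and HSPB1 lost it). The sign of HSPBP1 (0.03) turned in TPM (-0.09) and after removal of the length trend (-0.09), and was between -0.02 and 0.07 with a library left out. That of HSPE1 (0.06) turned likewise (-0.05 and -0.07), with -0.02 to 0.19. Neither was called where its sign turned, and the cause was not tested. The other 25 members named by rule and tested kept their sign. HSPA8 was also called in TPM (-0.22) and with voom (-0.10).

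Same-numbered libraries correlated at 0.0668, 0.0335 and -0.0640 in their deviations, and differently numbered ones at -0.0938 to 0.0608. With 3 libraries a group, these values cannot settle whether the replicate numbers pair the samples. With the replicate block, 25 members were called lower and 8 higher. Depth limits the 26 members below the filter, of which none had more than 143 fragments in a library.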
